A study of Mus musculus with 8 samples.

Results

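Lymph node homing and egress receptors were followed as 9 genes given by name: Ccr7, S1pr1, Cxcr4, Itgal, Itgb2, Itga4, Itgb7, Itga6 and Cd44. Each was found by its symbol in all 8 libraries, among 23337 symbols in all. The 9 genes also had an average of 1 TPM or more across the libraries, the filter for testing, which 11786 symbols passed. TPM is a length-corrected share of all transcripts, so levels can be set side by side between genes.

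The cells were naive CD4 and naive CD8 T cells of mice 4 weeks old, sorted from mLNs and spleens together, so the organ of origin of a transcript is not resolved. The groups were CD4 KO, CD4 WT, CD8 KO and CD8 WT, with 2 libraries each. Every library is labelled as fresh in its title. KO stands for the CD4-cre Trappc1 cKO, in which a Cre driven by the Cd4 promoter deletes Trappc1 during thymic development, in the CD4 and the CD8 lineage alike. WT is the genotype in the labels, which do not say whether these mice carried the Cre or the floxed allele. Trappc1 encodes a core component shared by TRAPP complexes, tethers for vesicles in transit to and through the Golgi. All groups went through the same gate for naive cells, which included low CD44, so the level of Cd44 comes from cells selected on its protein and is no finding. Whether replicate libraries stem from different animals is not in the labels, and p-values here reflect the spread between libraries alone, which may be technical.

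Naive T cells circulate between blood and lymph nodes. They roll along the vessel wall, are stopped there when the chemokine receptor CCR7 switches on the integrin LFA-1, and leave again when S1PR1 senses the sphingosine 1-phosphate of the lymph. LFA-1 is the pair of the integrin chains αL (Itgal) and β2 (Itgb2) and binds ICAM-1. The chain α4 (Itga4) pairs with β7 (Itgb7) to bind MAdCAM-1 in gut-draining nodes, or with β1 to bind VCAM-1, and α6 (Itga6) is part of laminin receptors. CXCR4 responds to CXCL12, and CD44 binds hyaluronan. RNA was measured, not the receptors on the surface.

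RefSeq promoter entries (GRCm38.p6) were matched by symbol for 4 of the 9 genes: Cxcr4, Itga4, Itgb7 and Cd44. The 250 bases before the start are shown for the chains of α4β7, because their ratio differed between KO and WT CD8 libraries, and for Icam1, the ligand of LFA-1 and the transcript of the pathway that rose in CD4 KO cells. Capitals mark CACCC, the core read by KLF factors such as KLF2, and TGTGGT, a core read by RUNX factors, each on both strands.
Itgb7, minus strand, chr15:102231936-102232185: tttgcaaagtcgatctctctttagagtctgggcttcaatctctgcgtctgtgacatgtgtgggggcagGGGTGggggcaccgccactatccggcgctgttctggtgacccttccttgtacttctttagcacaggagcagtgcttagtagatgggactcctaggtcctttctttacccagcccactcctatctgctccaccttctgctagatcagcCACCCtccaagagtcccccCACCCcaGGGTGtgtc
Itga4, plus strand, chr2:79255176-79255425: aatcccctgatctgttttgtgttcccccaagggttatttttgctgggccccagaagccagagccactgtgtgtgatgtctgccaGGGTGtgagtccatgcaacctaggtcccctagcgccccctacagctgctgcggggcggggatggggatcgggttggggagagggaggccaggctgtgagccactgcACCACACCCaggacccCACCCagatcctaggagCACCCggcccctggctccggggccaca
Icam1, plus strand, chr9:21015690-21015939: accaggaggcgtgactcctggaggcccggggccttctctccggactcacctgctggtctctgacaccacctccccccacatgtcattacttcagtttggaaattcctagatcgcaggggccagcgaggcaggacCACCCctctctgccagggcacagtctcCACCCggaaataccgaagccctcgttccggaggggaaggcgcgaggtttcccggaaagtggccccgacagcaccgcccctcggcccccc
Itgb7 held 4 CACCC matches, Itga4 held 4 and Icam1 held 2, and CACCC occurs in 52.0% of 32851 mouse promoters of that length. Itga4 also held 1 TGTGGT match, read on the other strand as ACCACA and overlapping a CACCC, and TGTGGT occurs in 14.0% of promoters. The ETS core GGAAGT, found in 19.7% of promoters, was in none of the 3. Upstream of Cxcr4 there was 1 CACCC and upstream of Cd44 none. These are letter matches, not sites of binding.

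The libraries held 3.03 to 4.01 gigabases of aligned sequence. Cd4 lay at 543 to 764 TPM in the CD4 libraries and at 0 to 14.5 TPM in the CD8 libraries, while Cd8a lay at 163 to 548 TPM in the CD8 libraries and at 1.28 to 4.10 TPM in the CD4 libraries. Trappc1 had 30.5 and 32.8 TPM in CD4 KO libraries, against 78.7 and 55.0 TPM in CD4 WT libraries. It had 56.9 and 45.6 TPM in CD8 KO libraries, against 81.2 and 40.3 TPM in CD8 WT libraries. The low value is from the library labelled CD8 WT replicate 2, which goes against its label here and also stood apart by its content. There the erythroid markers summed to 93131 TPM and the neutrophil and macrophage markers to 29923 TPM, against at most 2253 and 2262 TPM in the other 7. The T-cell markers summed to 4744 TPM there, against 6853 to 12104 TPM in the other 7. Log2 differences in CD8 cells are also given without it where that turned their sign or moved them by over 1.5 times. The sources used here do not give the deleted part of Trappc1, so whether the remaining reads lie outside that part cannot be told.

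In all 4 groups the receptors spanned a wide range, and their order was nearly the same. By the group means, Ccr7 was the most abundant, followed by S1pr1, and Cd44 was the least abundant in each group. Ccr7 averaged 3251 ± 52.0 TPM in CD4 KO cells, 1933 ± 95.5 TPM in CD4 WT cells, 2273 ± 29.4 TPM in CD8 KO cells and 2064 ± 212 TPM in CD8 WT cells (SD, n = 2 each). These means put it at place 19 among all symbols in CD4 KO cells and at place 46 in CD4 WT cells. Behind S1pr1, CD4 cells of both genotypes and CD8 WT cells had Itgb7 and then Itgb2. In CD8 KO cells Itgb2 came before Itgb7, whose libraries overlapped there with those of Itga4. The libraries of Cxcr4, Itgal and Itga4 overlapped in several groups, so their order in the middle is not settled, and in CD8 WT cells the libraries of Itgb7 overlapped with those of both S1pr1 and Itgb2. Cd44 ran between 0.969 and 33.4 TPM within CD8 WT alone. Its libraries overlapped there with those of Itga6, so its last place in that group is not settled.

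**Figure D1:**
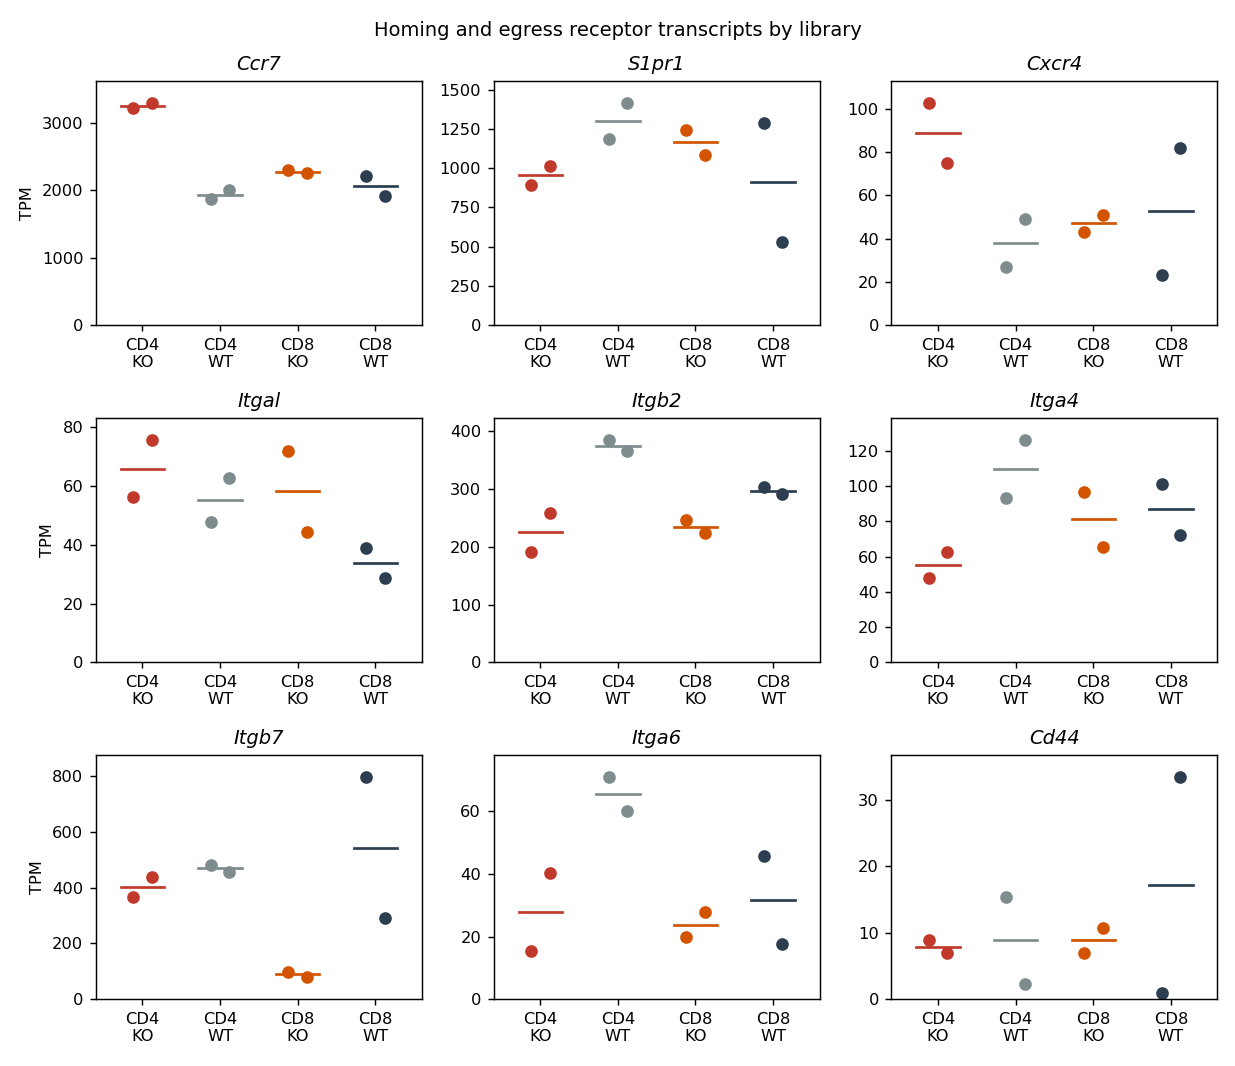
Level of each of the 9 receptor genes in TPM (vertical axes, starting at 0) in the 8 libraries. Points are libraries and lines are the mean of the 2 libraries of a group. Itgb7 lies at 98.0 and 81.4 TPM in CD8 KO, below every other library, and Ccr7 lies at 3215 and 3288 TPM in CD4 KO, above every other library.

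In CD4 cells Ccr7 and Cxcr4 lay higher in both KO libraries than in both WT libraries, while S1pr1, Itgb2, Itga4, Itgb7 and Itga6 lay lower. None of these differences passed the test across all genes. Ccr7, the receptor for CCL19 and CCL21, had 3215 and 3288 TPM in CD4 KO libraries, against 1865 and 2000 TPM in CD4 WT libraries. Both KO libraries lay above every other library of the study, and the replicates of each group were close to each other. The log2 difference was 0.75 ± 0.27 (SE), a limma adjusted p of 0.209, and so did not pass. It passed in 3 of 18 alternative settings: with library weights (limma adjusted p 0.0278), without CD8 WT replicate 1 and without CD8 WT replicate 2. With library weights 1260 genes were called in CD4 cells, against 84 in the main fit. Without a CD8 WT library that group keeps 1 library, and the count of genes called rose as well. In CD8 cells Ccr7 had 2294 and 2253 TPM in KO libraries, against 2214 and 1914 TPM in WT libraries. The groups did not overlap, but the gap between the nearest libraries was small beside the spread in WT. Its log2 difference of 0.14 had a 95% interval of -0.46 to 0.75 and was 0.038 without CD8 WT replicate 2.

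Cxcr4, the CXCL12 receptor that also holds cells in the bone marrow, had 103 and 74.7 TPM in CD4 KO libraries, against 26.8 and 49.3 TPM in CD4 WT libraries. The groups did not overlap, and within each group 1 library was well above the other. The log2 difference of 1.25 ± 0.55 (SE) had a limma adjusted p of 0.298 and passed under none of the 18 alternatives. In CD8 cells Cxcr4 had 43.3 and 51.0 TPM in KO libraries, between the WT values of 23.2 and 82.0 TPM. The higher WT value belongs to the library labelled CD8 WT replicate 2. The log2 difference of 0.10 became -0.79 without CD8 WT replicate 1 and 0.99 without CD8 WT replicate 2.

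S1pr1, the egress receptor, had 896 and 1017 TPM in CD4 KO libraries, against 1188 and 1415 TPM in CD4 WT libraries. The 2 KO libraries were the lower ones, without overlap, and the log2 difference of -0.44 ± 0.40 (SE) had a limma adjusted p of 0.605. In CD8 cells it had 1247 and 1088 TPM in KO libraries, against 1291 and 528 TPM in WT libraries. Here the result rested on 1 library: the KO values lay between the WT values. The log2 difference of 0.50 became 1.14 without CD8 WT replicate 1 and -0.15 without CD8 WT replicate 2.

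Of the integrin chains in CD4 cells, Itgb2 and Itga4 lay lower in both KO libraries. Itgb2 had 191 and 259 TPM in CD4 KO libraries, against 384 and 365 TPM in CD4 WT libraries. Its log2 difference was -0.75 ± 0.27 (SE), with a limma adjusted p of 0.213. Its partner Itgal did not share this: it had 56.3 and 75.6 TPM in CD4 KO libraries, against 47.9 and 62.7 TPM in CD4 WT libraries, and the groups overlapped. Itga4 had 47.8 and 62.5 TPM in CD4 KO libraries, against 93.4 and 126 TPM in CD4 WT libraries, a log2 difference of -0.98 ± 0.35 (SE) with a limma adjusted p of 0.209. Both chains passed with library weights, which gave a limma adjusted p of 0.0479 for Itgb2 and 0.0474 for Itga4, and under no other of the 18 settings. With these weights 1260 genes were called in CD4 cells, against 84 in the main fit. Itga4 shares 624 bases with Cerkl on the opposite strand. The sources used here do not give whether counting used strand, so reads of the shared stretch cannot be told apart.

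Itga6 had 15.5 and 40.4 TPM in CD4 KO libraries, against 70.8 and 60.0 TPM in CD4 WT libraries. The KO libraries differed more from each other than the WT libraries did, and the log2 difference of -1.34 ± 0.55 (SE) had a limma adjusted p of 0.263. Itgb7 had 366 and 438 TPM in CD4 KO libraries, against 482 and 456 TPM in CD4 WT libraries. The gap between the nearest libraries was smaller than the spread in KO, and the log2 difference was -0.23 with a 95% interval of -1.17 to 0.72. Cd44 had 8.90 and 6.97 TPM in CD4 KO libraries, both between the 15.4 and 2.39 TPM of CD4 WT libraries.

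Counted over the 9 genes, none passed at a limma adjusted p under 0.05 in CD4 cells, where 0.713% of all genes tested did. At an unadjusted limma p under 0.05 there were 5, namely Ccr7, Cxcr4, Itgb2, Itga4 and Itga6, where 16.7% of all genes tested reached it. The libraries did not overlap for 2 genes higher in KO, against 21.7% of all genes tested, and for 5 genes lower in KO, against 36.5%. The median log2 difference of the 9 was -0.23, beside -0.16 over all genes tested. Other cells' transcripts moved with genotype in these libraries. The 14 neutrophil and macrophage markers summed to 1369 and 2262 TPM in CD4 KO libraries, against 285 and 89.2 TPM in CD4 WT libraries. None of the 14 was at 0 in both CD4 KO libraries, and 11 were higher there without overlap. The 10 B-cell markers summed to 2129 and 2014 TPM in CD4 KO libraries, against 2948 and 3269 TPM in CD4 WT libraries, with none at 0. Without overlap, 5 of the 10 were lower and 1 was higher. The 13 T-cell markers summed to 6853 and 7571 TPM in CD4 KO libraries, against 9431 and 9033 TPM in CD4 WT libraries. Of the 13, 8 were lower without overlap and 1, Cd3e, was higher. T-cell and B-cell sums were thus lower in both KO libraries, while the myeloid sum was higher. The 9 markers of antigen-experienced T cells summed to 453 and 398 TPM in CD4 KO libraries, against 207 and 174 TPM in CD4 WT libraries, where Ifng and Tbx21 were at 0. Of these 9, 6 were higher in KO without overlap and 1 was lower. The 9 erythroid markers summed to 382 and 213 TPM in CD4 KO libraries, against 16.2 and 107 TPM in CD4 WT libraries, where Hbb-b2 and Slc4a1 were at 0, and 5 of the 9 were higher without overlap. Sums of NK-cell, platelet, and endothelial and stromal markers were at most 81.0 TPM in CD4 KO libraries and at most 125 TPM in CD4 WT libraries. Each sum was lower in both KO libraries, but the single markers did not all go that way. Of 3 NK-cell markers tested, 2 were higher in KO without overlap and 1 was lower. Of 2 endothelial and stromal markers tested, 1 was higher and 1 was lower. Several of the receptors are also made by other cells, and the part of such cells in the differences was not tested. In sorted bulk samples, fewer cells of a type and less RNA per cell cannot be told apart.

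In CD8 cells Itgb7, the chain that makes α4β7 and the E-cadherin receptor αEβ7, was the receptor that differed most. It had 98.0 and 81.4 TPM in CD8 KO libraries, against 794 and 291 TPM in CD8 WT libraries. The KO libraries were close to each other and well below both WT libraries, which differed from each other by more than the KO mean. The KO mean was 0.165 of the WT mean. The log2 difference of -2.42 ± 0.42 (SE; 95% interval -3.36 to -1.47) had an unadjusted limma p of 0.000218 and a limma adjusted p of 0.0626, just short of the threshold. It kept its sign in all 18 alternatives and passed in 6 of them, among them the fits that keep only 1 library in CD8 WT. The difference did not pass without a filter on low values (limma adjusted p 0.241) or with library weights (limma adjusted p 0.103). With only the CD8 libraries fitted it did not pass either (limma adjusted p 0.618). Nor did it when any CD4 library or any CD8 KO library was left out. Without CD8 WT replicate 1 the log2 difference was -1.69, and without CD8 WT replicate 2 it was -3.14. Some marker sums moved with genotype in CD8 cells as well. The 9 erythroid markers summed to 211 and 346 TPM in CD8 KO libraries, against 2253 and 93131 TPM in CD8 WT libraries, with none at 0 and 8 of the 9 lower in KO without overlap. The 9 markers of antigen-experienced T cells summed to 1156 and 1208 TPM in CD8 KO libraries, where Ifng was at 0, against 527 and 1081 TPM in CD8 WT libraries, with 3 of the 9 higher in KO without overlap and 1 lower. The 10 B-cell markers, none of them at 0, summed to 527 and 544 TPM in CD8 KO libraries, against 473 and 1324 TPM in CD8 WT libraries, with 1 higher and 2 lower without overlap. The 13 T-cell markers summed to 11349 and 10361 TPM in CD8 KO libraries, against 12104 and 4744 TPM in CD8 WT libraries. Of these, 4 were higher and 1 lower without overlap. The 14 neutrophil and macrophage markers summed to 1207 and 1608 TPM in KO, against 678 and 29923 TPM in WT. All 14 had log2 differences below 0, and 2 did not overlap. Beside these counts, 23.0% of all genes tested were higher and 19.1% lower in CD8 KO without overlap. Erythroid sums were thus lower in both KO libraries, and antigen-experienced sums higher, though CD8 WT replicate 2 came close. B-cell, T-cell and myeloid sums overlapped. The part of these cells in the CD8 differences was not tested.

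The other integrin chains of CD8 cells differed less. Itgb2 had 246 and 224 TPM in CD8 KO libraries, against 303 and 292 TPM in CD8 WT libraries, without overlap and with a log2 difference of -0.34 (limma adjusted p 0.570). Itgal had 72.0 and 44.5 TPM in CD8 KO libraries, against 38.9 and 28.7 TPM in CD8 WT libraries, also without overlap. Its log2 difference of 0.74 ± 0.38 (SE) had a limma adjusted p of 0.389, opposite in sign to that of its partner Itgb2. For Itga4, Itga6 and Cd44 the KO and WT libraries overlapped. Their log2 differences were -0.11, -0.26 and 0.24, with 95% intervals that all held 0, and became -0.35, -0.93 and 2.30 without CD8 WT replicate 2. None of the 9 passed at a limma adjusted p under 0.05, where 0.297% of all genes tested did, and Itgb7 alone had an unadjusted limma p under 0.05, where 15.1% did. The libraries did not overlap for 2 genes higher in KO and 2 lower, against 23.0% and 19.1% of all genes tested.

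**Figure D2:**
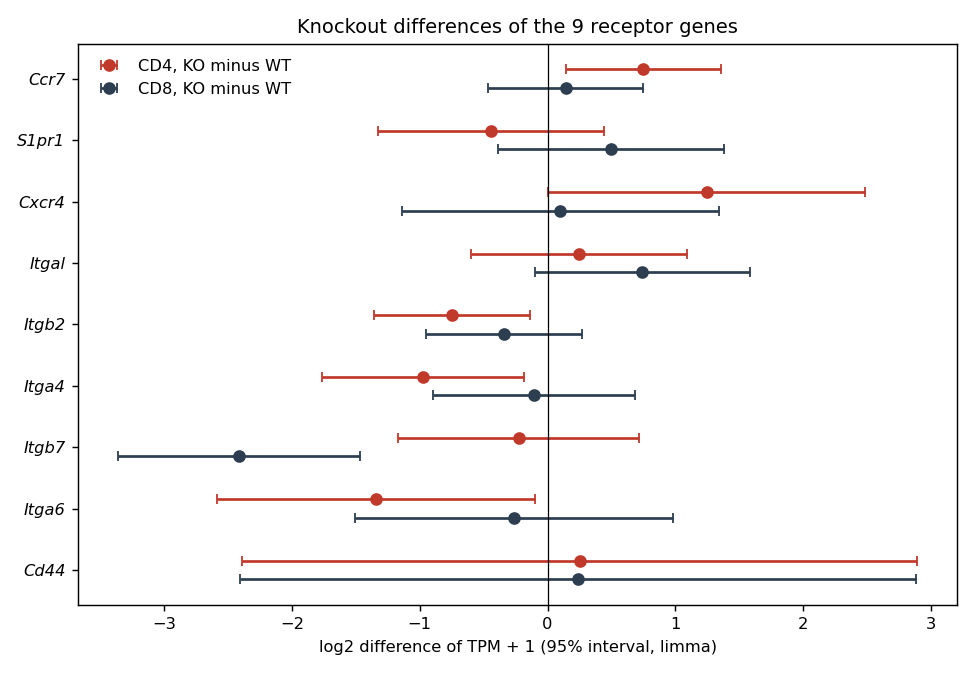
Log2 difference of TPM + 1, KO minus WT (horizontal axis), for each receptor gene in CD4 and CD8 cells. Points are limma estimates and bars their 95% intervals, from 2 libraries a group. Itgb7 in CD8 cells lies farthest from 0, at -2.42, and the intervals of Ccr7, Cxcr4, Itgb2, Itga4 and Itga6 in CD4 cells leave out 0 before adjustment over all genes.

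The KO difference itself was compared between the lineages. For Itgb7 it was 2.19 log2 units more negative in CD8 than in CD4 cells (unadjusted limma p 0.00457), which did not pass after adjustment (limma adjusted p 0.692). It passed without CD8 WT replicate 1, at -1.47 with a limma adjusted p of 0.0286, when 1148 genes did. S1pr1 had a difference of 0.94 between the lineages (limma adjusted p 0.720) and passed in that same setting only, at 1.58 with a limma adjusted p of 0.0201, while without CD8 WT replicate 2 it was at 0.29. For Ccr7 the difference was -0.61, with a 95% interval of -1.47 to 0.25. No gene of 11786 passed in the comparison of the lineages, against 6.95% at an unadjusted limma p under 0.05, so Ccr7 is not shown to respond differently in CD4 and CD8 cells.

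CD8 WT cells were also set against CD4 WT cells, which compares the lineages without the knockout. These groups also differed in transcripts of other cells. In CD8 WT, 13 of 14 neutrophil and macrophage markers and 8 of 9 erythroid markers were higher without overlap, and none was lower. Of 10 B-cell markers 6 were lower without overlap, and none was higher. The part of such cells was not tested. None of the 9 passed, where 0.195% of all genes tested did, nor had any an unadjusted limma p under 0.05, where 8.67% did. Itgal, Itgb2 and Itga6 lay lower in both CD8 WT libraries without overlap, against 24.8% of all genes tested, and none lay higher, against 9.53%. Itga6 had the largest of these differences, with 45.7 and 17.5 TPM in CD8 WT libraries, against 70.8 and 60.0 TPM in CD4 WT libraries, and a limma adjusted p of 0.595. Its log2 difference of -1.17 was -0.50 without CD8 WT replicate 2. Itgb7 had 794 and 291 TPM in CD8 WT libraries, on either side of the 482 and 456 TPM of CD4 WT libraries. S1pr1 was lower by 1.29 log2 units without CD8 WT replicate 1, that is, with the library labelled CD8 WT replicate 2 alone on the CD8 side. Without that library its log2 difference was -0.01.

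Integrin chains work in pairs, and 7 ratios of TPM were taken within each library, which no scaling between libraries can alter. Ccr7 to S1pr1 and Itgb7 to Itgb2 set side by side transcripts whose products do not pair with each other. All ratios are given as descriptions. Itgb7 to Itga4 was 1.01 and 1.25 in CD8 KO libraries, against 7.83 and 4.02 in CD8 WT libraries. In CD4 cells the same ratio was 7.65 and 7.02 in KO libraries, against 5.16 and 3.62 in WT libraries. The ratio of the α4β7 chains was thus lower in both CD8 KO libraries and higher in both CD4 KO libraries than in their WT libraries. The ratios keep any trend with genomic span, and Itga4 is the longer gene. With the trend of each library against span removed, the log2 differences in CD4 cells were -0.27 for Itga4 and -0.22 for Itgb7. In the main fit they were -0.98 and -0.23, so the higher CD4 ratio depends on that trend. In CD8 cells they were 0.24 and -2.65 with the trend removed. Itgae, which encodes αE, the other partner of β7, had 302 and 224 TPM in CD8 KO libraries, against 124 and 42.4 TPM in CD8 WT libraries. Its log2 difference of 1.82 ± 0.51 (SE) had a limma adjusted p of 0.180. It became 1.06 without CD8 WT replicate 2 and 2.59 without CD8 WT replicate 1. Itgae to Itgb7 was 3.08 and 2.75 in CD8 KO libraries, against 0.157 and 0.146 in CD8 WT libraries. In WT the β7 transcript was thus in excess of αE in both libraries, and in KO the αE transcript was in excess.

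Itgb2 to Itgal, the chains of LFA-1, was 3.40 and 3.43 in CD4 KO libraries, against 8.02 and 5.82 in CD4 WT libraries. It was 3.42 and 5.03 in CD8 KO libraries, against 7.78 and 10.2 in CD8 WT libraries. Both lineages had the lower ratio in both KO libraries, without overlap. Ccr7 to S1pr1, entry against exit, was 3.59 and 3.23 in CD4 KO libraries, against 1.57 and 1.41 in CD4 WT libraries. In CD8 cells it was 1.84 and 2.07 in KO libraries, between the WT values of 1.72 and 3.63. Itgb7 to Itgb2, the β chains of gut and general homing, was 0.398 and 0.364 in CD8 KO libraries, against 2.62 and 0.999 in CD8 WT libraries. In CD4 cells it was 1.91 and 1.69 in KO libraries, against 1.25 in both WT libraries, and so lay on the other side of WT. Itgb1, which encodes β1, was set against its α partners. Itgb1 to Itga4 was 0.167 and 0.260 in CD8 KO libraries, against 0.272 and 0.663 in CD8 WT libraries, and 0.510 and 0.188 in CD4 KO libraries, against 0.247 and 0.113 in CD4 WT libraries. The CD4 groups overlapped, and the CD8 groups were close to overlapping. Itgb1 to Itga6 ran from 0.237 to 2.74 over the 8 libraries, with KO and WT overlapping in both lineages.

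**Figure D3:**
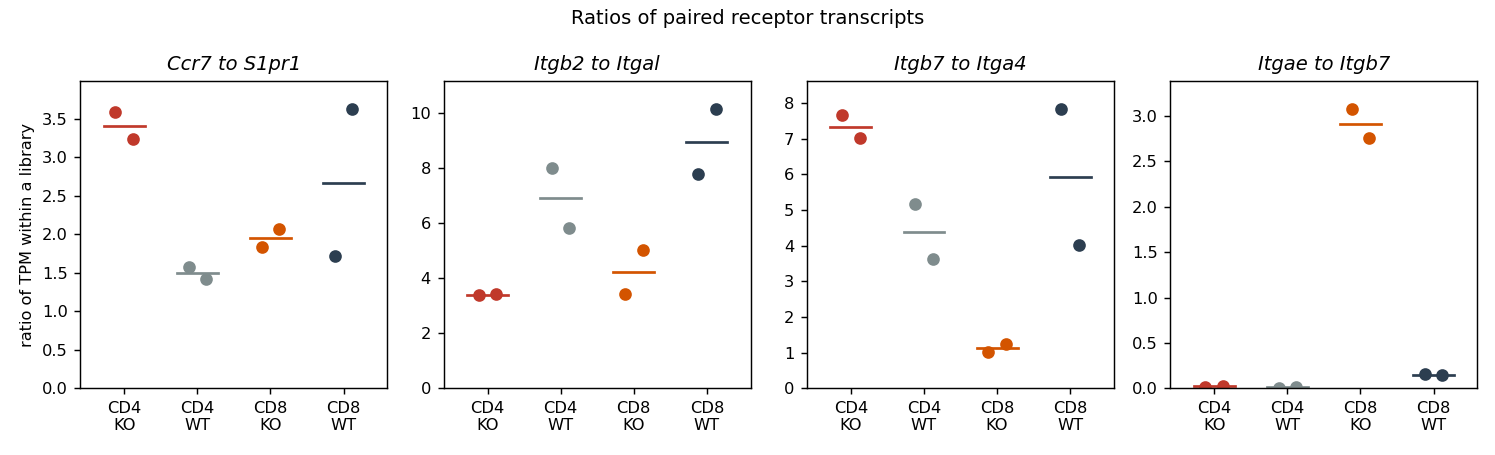
Ratio of TPM between receptor transcripts within each library (vertical axes, starting at 0). Points are libraries and lines the mean of 2. Itgb7 to Itga4 is 1.01 and 1.25 in CD8 KO and at least 3.62 in every other library, and Ccr7 to S1pr1 is 3.59 and 3.23 in CD4 KO against 1.57 and 1.41 in CD4 WT.

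The partners of the receptors were read from 8 lists of 118 genes, of which 98 were tested. In CD4 cells 1 of the 98 rose and 2 fell, where 0.187% and 0.526% of all genes tested did, and 12 (12.2%) had an unadjusted limma p under 0.05, where 16.7% of all genes tested did. Icam1, the LFA-1 ligand that T cells themselves carry, had 469 and 481 TPM in CD4 KO libraries, against 72.0 and 115 TPM in CD4 WT libraries. It rose by a log2 difference of 2.37 ± 0.30 (SE; limma adjusted p 0.0290). In CD8 cells it had 512 and 518 TPM in KO libraries, against 169 and 162 TPM in WT libraries, a log2 difference of 1.63 ± 0.30 (SE) that did not pass (limma adjusted p 0.0678). KO libraries of both lineages were thus close to each other and above every WT library. The call in CD4 cells was lost when any CD4 library or any CD8 KO library was left out, with limma adjusted p between 0.0943 and 0.375, and without a filter on low values (0.0753), while the log2 difference stayed between 2.04 and 2.70. Icam1 is also made by B cells and macrophages, whose markers are given above, and their part was not tested.

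Dock2 and Elmo1 encode the Rac activator that drives T cell movement toward chemokines and its partner. Dock2 had 58.3 and 87.9 TPM in CD4 KO libraries, against 459 and 376 TPM in CD4 WT libraries, and fell by 2.52 ± 0.39 on the log2 scale (SE; limma adjusted p 0.0343). Elmo1 had 63.0 and 70.0 TPM in CD4 KO libraries, against 337 and 342 TPM in CD4 WT libraries, and fell by 2.34 ± 0.32 on the log2 scale (SE; limma adjusted p 0.0290). Every KO library lay far below both WT libraries for both genes. Dock2 spans 288 kb in the deposited tables and 557 kb in GENCODE vM21, Elmo1 spans 518 kb in both, and genes over 100 kb had a median log2 difference of -1.12 in CD4 cells. With the trend of each library against genomic span removed, neither passed: the log2 difference was -0.97 for Dock2 (limma adjusted p 0.275) and -0.41 for Elmo1 (limma adjusted p 0.514). Both calls were also lost when any CD4 library or any CD8 KO library was left out, with limma adjusted p between 0.0943 and 0.440, and without a filter on low values, at 0.0892 for Dock2 and 0.0753 for Elmo1. Dock2 overlaps Fam196b on the opposite strand over 107819 bases, and reads there cannot be told apart.

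In CD8 cells Rac1, the GTPase that DOCK2 can activate beside Rac2, fell. It had 22.6 and 34.2 TPM in KO libraries, against 177 and 132 TPM in WT libraries, a log2 difference of -2.42 ± 0.35 (SE; limma adjusted p 0.0284). In CD4 cells Rac1 had 100.5 and 72.9 TPM in KO libraries, against 77.6 and 65.6 TPM in WT libraries, and the groups overlapped. The difference between the lineages was -2.68 (limma adjusted p 0.431) and so did not pass. Rac1 in CD8 cells was the 1 called gene of the 98, none of them higher, where 0.187% of all genes tested fell and 0.110% rose, and 20 (20.4%) had an unadjusted limma p under 0.05, where 15.1% of all genes tested did. The call was lost when any CD4 library or any CD8 KO library was left out, with limma adjusted p between 0.0980 and 0.239. It was also lost without a filter (0.136), with library weights (0.138) and with only the CD8 libraries fitted (0.618 by limma). With the span trend removed it was -2.56 (limma adjusted p 0.0290).

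**Figure D4:**
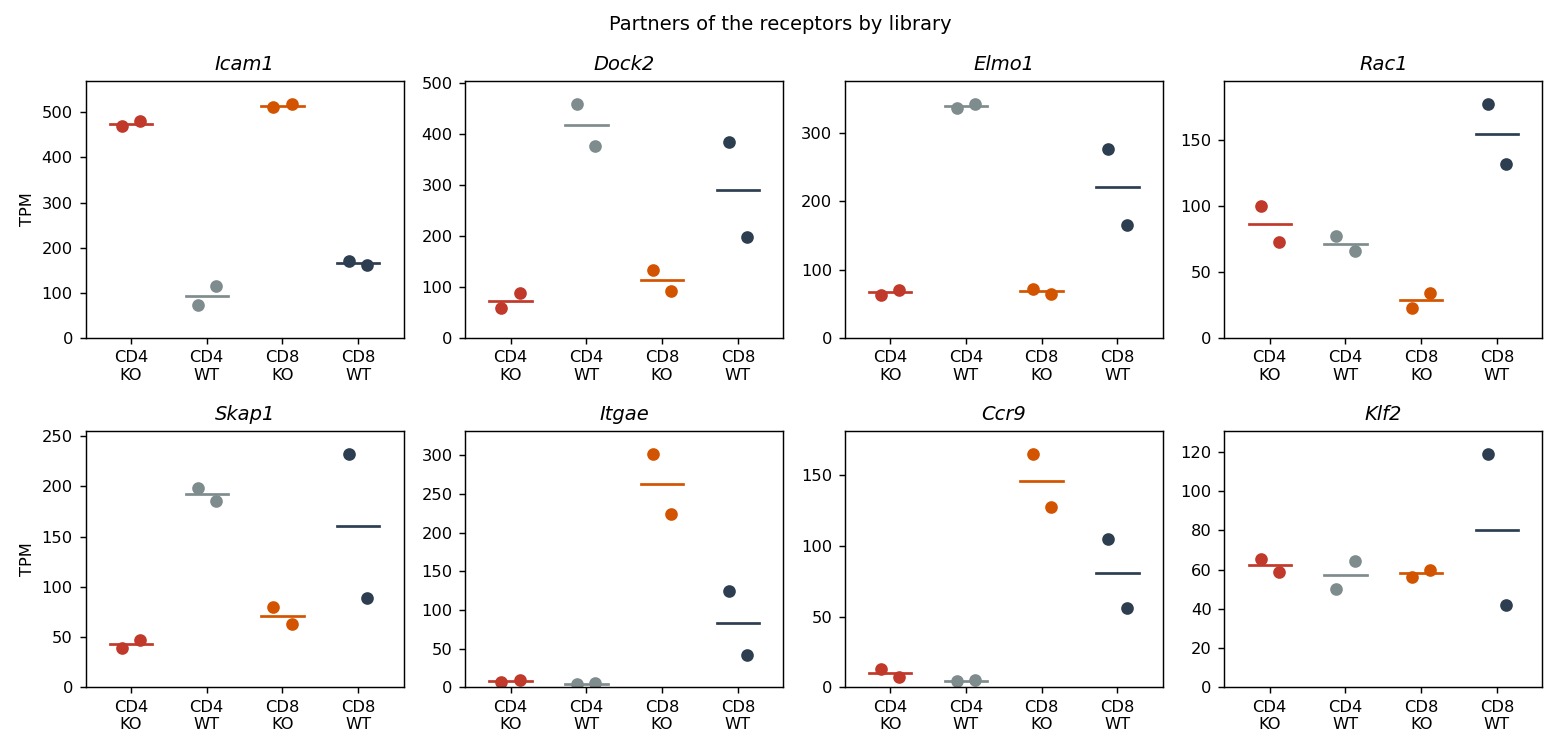
Level in TPM (vertical axes, starting at 0) of 8 partners of the receptors in the 8 libraries, with lines at the mean of 2. Icam1 lies between 469 and 518 TPM in all 4 KO libraries, Dock2 and Elmo1 lie lower in every KO library than in the WT libraries of its lineage, and Rac1 lies at 22.6 and 34.2 TPM in CD8 KO, below every other library.

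The other lists held no call in the KO comparisons. Klf2, a factor that drives S1pr1 in T cells, had 65.4 and 58.9 TPM in CD4 KO libraries, against 50.03 and 64.3 TPM in CD4 WT libraries. In CD8 cells Klf2 had 56.3 and 59.9 TPM in KO libraries, between the WT values of 119 and 42.0 TPM. Klf2 passed in no comparison, and its limma adjusted p was 0.917 in CD4 cells and 0.792 in CD8 cells. Its log2 difference in CD8 cells of -0.28 became 0.46 without CD8 WT replicate 1 and -1.02 without CD8 WT replicate 2. Foxp1, a repressor that keeps T cells naive, had 121 and 134 TPM in CD4 KO libraries, against 312 and 331 TPM in CD4 WT libraries. Its log2 difference of -1.33 (limma adjusted p 0.0639) became 0.58 with the span trend removed. The gene covers 510 kb. Foxo1, which activates Klf2 and Ccr7, had 7.29 and 8.27 TPM in CD8 KO libraries, against 15.3 and 20.8 TPM in CD8 WT libraries, with a limma adjusted p of 0.3003.

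Of the 10 other S1P genes tested, none had an unadjusted limma p under 0.05 in CD4 or CD8 cells, where 16.7% and 15.1% of all genes tested did. Sphk2, a kinase that makes sphingosine 1-phosphate, had 89.5 and 99.6 TPM in CD4 KO libraries, against 33.2 and 89.3 TPM in CD4 WT libraries. Its nearest libraries were almost equal, and its limma adjusted p was 0.410. Of 19 genes of integrin activation, none was called and 4 (21.1%) had an unadjusted limma p under 0.05 in each lineage, near the 16.7% and 15.1% of all genes tested in CD4 and CD8 cells. Skap1, an adaptor that carries the T cell receptor signal to LFA-1, had 39.1 and 47.1 TPM in CD4 KO libraries, against 199 and 186 TPM in CD4 WT libraries. Its groups were far apart, with a log2 difference of -2.14 (limma adjusted p 0.0621) that was -0.57 with the span trend removed, in a gene of 295 kb. Rap1b, a GTPase that switches on LFA-1, had 29.2 and 22.4 TPM in CD8 KO libraries, against 53.0 and 73.9 TPM in CD8 WT libraries. Its log2 difference of -1.26 (limma adjusted p 0.183) was -1.50 without CD8 WT replicate 1.

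Of 10 other chemokine receptors tested, 1 had an unadjusted limma p under 0.05 in CD4 cells, where 16.7% of all genes tested did, and 4 in CD8 cells, where 15.1% did, and none was called. Cxcr6, the receptor for CXCL16, had 1.66 and 2.29 TPM in CD4 KO libraries, against 6.92 and 4.26 TPM in CD4 WT libraries (limma adjusted p 0.345). Of 8 other integrin chains tested, none had an unadjusted limma p under 0.05 in CD4 cells and 2, Itgae and Itgav, did in CD8 cells, against the same shares of all genes tested. Itgam, the β2 partner of myeloid cells, had 5.74 and 10.1 TPM in CD4 KO libraries, against 0.715 and 0.0238 TPM in CD4 WT libraries (limma adjusted p 0.328). It moved with the neutrophil and macrophage markers, whose part was not tested. Spp1, the CD44 and integrin ligand osteopontin, had 11.0 and 4.43 TPM in CD4 KO libraries, against 0 and 0.105 TPM in CD4 WT libraries (limma adjusted p 0.428). In CD8 cells Spp1 had 0.117 and 17.3 TPM in KO libraries, overlapping with the 16.4 and 1138 TPM of WT libraries. The part of other cells in Spp1 was not tested. Mfsd2b, a sphingosine 1-phosphate exporter of erythroid cells, had 0.453 and 1.95 TPM in CD8 KO libraries, against 2.26 and 17.8 TPM in CD8 WT libraries, where the erythroid markers were also highest and their part was not tested. Its log2 difference of -1.92 (limma adjusted p 0.341) became -0.65 without CD8 WT replicate 2 and -3.18 without CD8 WT replicate 1.

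The 16 genes of G protein coupling and desensitisation gave 1 unadjusted limma p under 0.05 in each lineage, a share of 6.25%, below the 16.7% and 15.1% of all genes tested. These were Grk6 in CD4 cells, a kinase that marks chemokine receptors for arrest, and Arrb1 in CD8 cells, an arrestin. Grk6 had 36.7 and 53.2 TPM in CD4 KO libraries, against 125 and 65.0 TPM in CD4 WT libraries, with a limma adjusted p of 0.267. Arrb1 had 8.25 and 3.01 TPM in CD8 KO libraries, against 12.4 and 22.1 TPM in CD8 WT libraries, with a limma adjusted p of 0.310. Between the lineages, 2 of the 98 partners rose in CD8 WT over CD4 WT cells, where 0.110% of all genes tested did, and none fell, where 0.0848% did. Ccr9, the receptor for the gut chemokine CCL25, had 105 and 56.0 TPM in CD8 WT libraries, against 4.66 and 5.09 TPM in CD4 WT libraries (log2 difference 3.73, limma adjusted p 0.0103). Itgae had 124 and 42.4 TPM in CD8 WT libraries, against 3.87 and 5.74 TPM in CD4 WT libraries (log2 difference 3.69, limma adjusted p 0.0249). Markers of other cells also differed between the WT groups, as given above, and their part in these differences was not tested. Both calls were lost without either CD4 WT library, with limma adjusted p between 0.203 and 0.365, and Itgae also without any KO library, at 0.108 to 0.114. Ccr9 kept its call without single CD4 KO libraries and lost it without single CD8 KO libraries, at 0.0594 and 0.0626. Without a filter, or with only the WT libraries fitted, both calls were lost, with limma adjusted p of 0.138 and 0.697 for Ccr9 and 0.183 and 0.846 for Itgae.

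Where the receptors lie on the trend with gene length is shown by their genomic spans. Among genes of 50 to 100 kb, 82.8% had a log2 difference below 0 in CD4 cells, with a median of -0.64, and Itga4, Itga6 and Cd44 belong there by the deposited positions. Itga6 spans 69.7 kb in these and 113 kb in GENCODE vM21, which would put it among the genes over 100 kb. With the span trend removed, the log2 difference in CD4 cells was -0.27 for Itga4 and -0.70 for Itga6. For Itgb2, among genes of 20 to 50 kb with a median of -0.24, it was -0.45. The values of the short genes moved less with this removal: Ccr7 was at 0.68 and Cxcr4 at 1.06. Itgb7 in CD8 cells, in a bin of 10 to 20 kb with a median of 0.22, was at -2.65 and passed (limma adjusted p 0.0290).

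**Figure D5:**
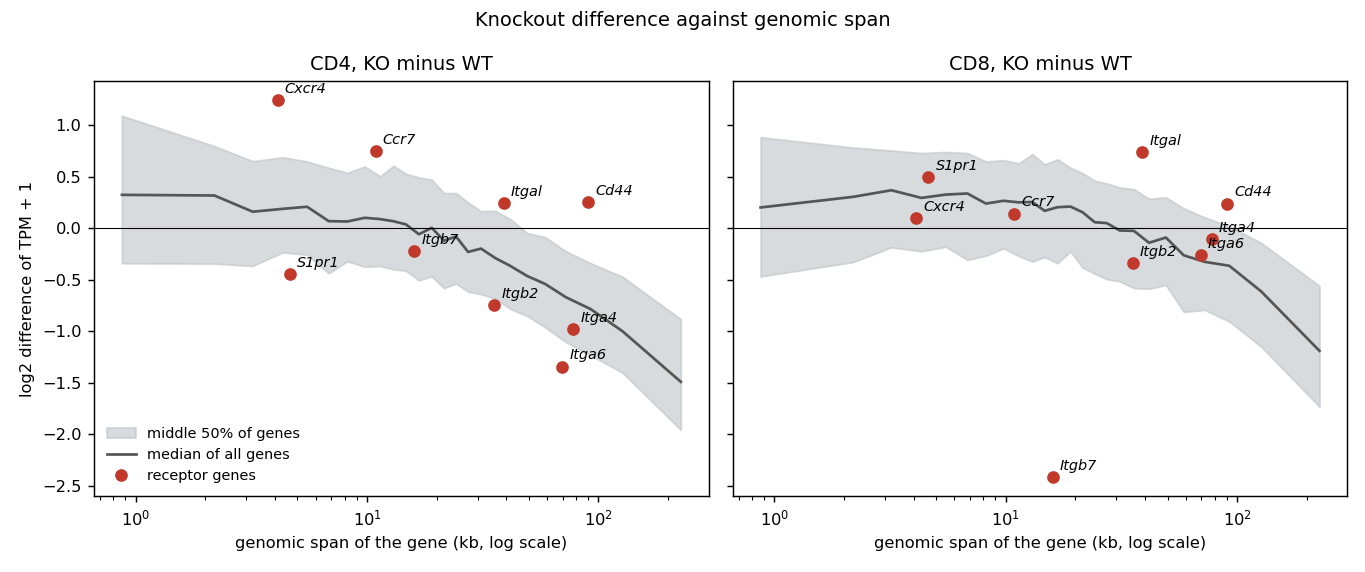
Log2 difference of TPM + 1, KO minus WT (vertical axis), against the genomic span of the gene in kb (log scale), in CD4 and CD8 cells. The line is the median and the band the middle 50% of all genes with 1 position, in 25 bins of equal size, and red points are the receptor genes. Itga4 and Itga6 lie in the long range, where the median falls, while Itgb7 in CD8 cells lies far below the band for its span.

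For each of the 3 chemoattractant receptors, the genes most like it over the 8 libraries were found by Pearson's r of log2(TPM + 1), among 5939 genes that averaged 20 TPM or more and had no library at 0. For Ccr7 these were Irf1 (r = 0.99), Morf4l2 (r = 0.96) and H2-K1 (r = 0.95), a class I histocompatibility gene that can share reads with its close relatives. Irf1, an interferon response factor, had 641 and 767 TPM in CD4 KO libraries, against 182 and 253 TPM in CD4 WT libraries. For S1pr1 they were Fam18b (r = 0.99), Sike1 (r = 0.98) and Zfp82 (r = 0.98), and all had their lowest level in the library labelled CD8 WT replicate 2, as S1pr1 did. Without that library their r was 0.92 to 0.94. For Cxcr4 they were Eif1 (r = 0.98), Atf4 (r = 0.97) and Bcl10 (r = 0.96). Eif1, a translation initiation factor, had 964 and 739 TPM in CD4 KO libraries, against 345 and 470 TPM in CD4 WT libraries, and like Cxcr4 it was high in the library labelled CD8 WT replicate 2, at 983 TPM. The libraries share their groups and depth, so these values describe likeness only.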

How the data were processed

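Naive CD4 and CD8 T cells were profiled by RNA-seq with the SMARTER mRNA library kit, per the labels. The submitters' processing notes name HISAT and mm10. The sources used here do not give the version of HISAT, the program behind the gene tables or the use of strand. The authors' deposited tables give TPM per symbol, with equal totals in all libraries, per the file headers. Next to TPM the deposited tables hold FPKM, fragments per length and per mapped read, used as an alternative scale. Mean read coverage of each gene is the third deposited value, and its ratio to FPKM gave the aligned bases per library. No counts were used, so no counting interval can be given, and an exact 0 may be a failed estimate.

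Symbols listed on several rows were summed. Log2(TPM + 1) of the 11786 symbols with a mean of at least 1 TPM was fitted with limma 3.58.1 (R 4.3.3), with an intensity trend and 1 mean for each of the 4 groups. The KO effect was tested in CD4 cells, in CD8 cells and between them, and CD8 WT cells were tested against CD4 WT cells. P-values were adjusted by Benjamini-Hochberg over all genes tested and called under 0.05. Fold changes are on the log2(TPM + 1) scale, which understates the change of low genes. The fit was tested on simulated data. The labels name DESeq2 for the authors' own testing, which needs counts. The alternatives were other pseudocounts, filters and scaling, FPKM, only the groups compared, library weights (limma array weights), a replicate block, removal of each library's trend against genomic span, and each library left out in turn.

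The 9 genes, the marker lists and the pathway lists were chosen with earlier results of these data known. From each pathway list the text names every gene called in any comparison and, for each KO comparison, the 1 gene with the largest log2 difference among those with no overlap between KO and WT libraries and at least 5 TPM in the higher group. Klf2 and Trappc1 are always named, and 1 further gene of that rule is not reported here. The 3 genes most like a receptor had a mean of at least 20 TPM. Itgav is named as 1 of 2 genes in a count. Of 119 listed pathway genes, 118 were distinct symbols in the tables. Promoters came from RefSeq (GRCm38.p6).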

Additional observations from a re-analysis of the deposited data

Results flagged for a closer look

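For Ccr8, a receptor of helper and regulatory T cells, both KO libraries lay above both WT libraries in CD4 cells and below both in CD8 cells. The nearest CD8 libraries, at 3.15 TPM in KO and 3.45 TPM in WT, were almost equal. It had 27.9 and 28.9 TPM in CD4 KO libraries, against 17.2 and 21.1 TPM in CD4 WT libraries. It had 3.15 and 0 TPM in CD8 KO libraries, against 3.45 and 33.9 TPM in CD8 WT libraries, of which the high value is from the library labelled CD8 WT replicate 2. The KO effect was lower in CD8 than in CD4 cells by 3.16 log2 units (-3.16 ± 1.32, SE), which did not pass in the limma test of the difference (adjusted p 0.701). It was -1.68 without CD8 WT replicate 2 and -4.65 without CD8 WT replicate 1. Ccr8 was singled out by the direction of the libraries.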

How the results depend on the processing

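The lowest receptor value was that of Cd44, at 0.969 TPM in CD8 WT replicate 1, a library of 3.78 aligned gigabases. TPM keeps no read count, and the part of depth in this value was not tested. None of the 9 receptors was called in the CD4 comparison, except 3 with library weights and 0 to 1 when single libraries were left out. In the CD8 comparison 1 receptor, Itgb7, was called with a filter at 5 TPM, with median-of-ratios scaling, with FPKM and with the span trend removed, and 0 to 2 when single libraries were left out. For the difference of the KO effect the count was 0 to 2, and for CD8 WT against CD4 WT 0 to 1, when single libraries were left out. Median-of-ratios scaling moved the median of all genes in CD4 cells to 0.03, against -0.16 as deposited, and there 62 of the called genes were higher and 79 lower, against 22 and 62 as deposited.

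Over all genes tested, the CD4 comparison called 84 genes, against 0 without a filter, 141 with median-of-ratios scaling, 243 with only the groups compared, 1260 with library weights, 21 with the span trend removed and 0 to 768 when single libraries were left out. The CD8 comparison called 35, against 0 without a filter, with only the groups compared or with library weights, and 0 to 1842 when single libraries were left out. CD8 WT against CD4 WT called 23, against 1 without a filter, 0 with only the groups compared, 15 with library weights and 0 to 1629 when single libraries were left out. For the difference of the KO effect the range was 0 to 1148.

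Same-numbered libraries did not deviate together (correlations from -0.036 to 0.094). With 2 libraries a group, this cannot tell whether same-numbered libraries share animals or a batch, which the labels do not give. With a replicate block the CD4 comparison called 29 genes, the CD8 comparison 26 and CD8 WT against CD4 WT 26, and no receptor was called.

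Signs turned only for differences that were never called as deposited, and the cause was not tested. Cd44 turned to 0.20 for the difference of the KO effect and -0.055 for CD8 WT against CD4 WT with a pseudocount of 0.1, and in CD8 cells to -0.14 with a pseudocount of 5 and -0.014 with FPKM. Cxcr4 in CD8 cells turned to -0.0011 with median-of-ratios scaling. With the span trend removed, in CD8 cells Ccr7 turned to -0.13, Cxcr4 to -0.26, Itga4 to 0.24 and Itga6 to 0.039, and in CD4 cells Foxp1 to 0.58. With single libraries left out, the log2 difference in CD8 cells ranged from -0.15 to 1.14 for S1pr1, -0.79 to 0.99 for Cxcr4, -0.39 to 0.17 for Itga4, -0.93 to 0.41 for Itga6, -1.82 to 2.30 for Cd44 and -1.02 to 0.46 for Klf2. That of Cd44 ranged from -0.89 to 1.39 in CD4 cells and from -2.08 to 2.05 for the difference of the KO effect. For CD8 WT against CD4 WT the ranges were -0.013 to 0.20 for Ccr7, -0.63 to 1.15 for Cxcr4, -0.68 to 0.76 for Itgb7 and -1.92 to 2.20 for Cd44.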
